A study of Homo sapiens with 12 samples.

Results

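Tetracycline (Tet) was taken out of the medium of Mock-transfected HEK293 cells, and the RNA of these cells was compared with that of Mock cells kept in Tet. HEK293 is a human embryonic kidney cell line that was transformed with adenovirus DNA. The arrays were chosen by the transfectant and the medium named in their labels, which gave 6 of the 12 arrays of the series, 3 of Mock cells without Tet (Mock Tet-) and 3 of Mock cells with Tet (Mock Tet+). The other 6 arrays were of a stable transfectant that carries RPF-1 cDNA in pTRE2puro, a Tet-regulated vector, 3 without Tet (RPF1 Tet-), in which this transcription factor is switched on, and 3 with Tet (RPF1 Tet+), in which it is off. All cells were cultured for 48 h in their medium before RNA was isolated. The study used the Mock cells to ask whether Tet itself, rather than the transfected factor, changes expression. The labels do not say what the Mock construct contains, whether the transfectant is 1 clone, what dose of Tet was used or whether the 3 arrays of a group came from separate cultures, so p-values measure the spread between these arrays, which may be technical.

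Tetracyclines bind the small subunit of the bacterial ribosome. The ribosome of human mitochondria descends from that of bacteria, and these drugs are known to slow its work in cultured cells, where respiratory chain subunits made from mitochondrial DNA must be matched by subunits made from nuclear genes. Cells with stressed mitochondria are known to switch on the ATF4 programme, which raises enzymes of serine and asparagine synthesis and the factor DDIT3, and tetracyclines also bind metal ions. Lists of nuclear genes for mitochondrial proteins and of genes for stress responses were therefore read out here.

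The upstream sequences of 5 stress genes are shown because each holds a match of an element through which a stress response is known to act. Whether each gene reads out its response in these cells was not tested, and HSPA8 is a constitutive gene. The runs are the 250 bases before the RefSeq start site in GRCh38.p14, 5′ to 3′ on the gene's strand, and capitals mark the matches of the element searched on both strands. ASNS, asparagine synthetase, lies on the minus strand at chr7:97872409-97872658, and its capitals mark the amino acid response element (TGATGNAAC or TGATGNAAT) that ATF4 binds. HSPA5, the endoplasmic reticulum chaperone BiP, lies on the minus strand at chr9:125241344-125241593 with an endoplasmic reticulum stress element (CCAAT and CCACG with 9 bases of any kind between them). HSPA8, the constitutive cytosolic chaperone Hsc70, lies on the minus strand at chr11:123062137-123062386 with 2 heat shock elements (GAA, TTC and GAA with 2 bases between each). MT2A, a metallothionein that binds zinc and copper, lies on the plus strand at chr16:56608334-56608583 with 7 matches of the metal response element (TGCGCNC or TGCACNC). EGR1, an immediate early transcription factor, lies on the plus strand at chr5:138465229-138465478 with 2 CArG boxes, the site of serum response factor.
ASNS: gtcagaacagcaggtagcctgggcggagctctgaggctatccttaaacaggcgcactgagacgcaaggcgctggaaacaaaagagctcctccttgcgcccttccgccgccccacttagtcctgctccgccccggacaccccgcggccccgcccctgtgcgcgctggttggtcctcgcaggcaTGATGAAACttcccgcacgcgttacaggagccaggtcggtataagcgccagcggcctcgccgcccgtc
HSPA5: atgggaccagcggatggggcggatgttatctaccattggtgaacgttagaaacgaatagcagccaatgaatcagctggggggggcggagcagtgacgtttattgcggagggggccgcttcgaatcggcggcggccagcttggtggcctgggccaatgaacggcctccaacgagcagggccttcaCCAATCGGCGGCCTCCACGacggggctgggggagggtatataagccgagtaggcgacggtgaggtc
HSPA8: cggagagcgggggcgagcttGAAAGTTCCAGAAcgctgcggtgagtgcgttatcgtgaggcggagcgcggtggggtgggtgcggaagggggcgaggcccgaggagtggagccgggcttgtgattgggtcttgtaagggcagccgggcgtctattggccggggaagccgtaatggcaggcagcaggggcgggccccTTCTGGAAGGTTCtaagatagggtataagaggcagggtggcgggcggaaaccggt
MT2A: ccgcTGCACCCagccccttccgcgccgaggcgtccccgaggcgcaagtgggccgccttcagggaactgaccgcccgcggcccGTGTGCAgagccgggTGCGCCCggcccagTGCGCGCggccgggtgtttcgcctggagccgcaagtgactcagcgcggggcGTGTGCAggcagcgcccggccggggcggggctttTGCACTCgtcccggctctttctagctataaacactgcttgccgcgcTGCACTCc
EGR1: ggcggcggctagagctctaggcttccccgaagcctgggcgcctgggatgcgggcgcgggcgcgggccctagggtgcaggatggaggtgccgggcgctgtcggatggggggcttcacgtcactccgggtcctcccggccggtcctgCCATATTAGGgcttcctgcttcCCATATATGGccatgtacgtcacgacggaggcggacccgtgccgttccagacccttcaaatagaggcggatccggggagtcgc

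Signals were read for 22184 probes on bead arrays, and 13785, 14017 and 13732 probes were detected in Mock Tet-, against 13626, 14039 and 14001 in Mock Tet+ (deposited detection p under 0.05). The number of arrays limits the precision of every value. After background correction and quantile normalization, 13228 features (1 probe for each of 11824 gene symbols, and probes without a symbol) were detected on at least 3 of the 12 arrays and were tested. Across these features, Pearson's r between arrays was 0.9947 to 0.9959 within Mock Tet-, 0.9938 to 0.9958 within Mock Tet+ and 0.9934 to 0.9963 between Mock Tet- and Mock Tet+ arrays. The arrays lay on 3 chips. The second chip held all 3 Mock Tet- arrays and Mock Tet+ 3, while Mock Tet+ 1 and Mock Tet+ 2 were on the first, so chip and medium cannot be fully told apart. Values within the second chip set 3 arrays against 1. The first chip held no Mock Tet- array, so a fit with chip as a block gave the same Mock changes. Both settings thus rest on Mock Tet+ 3 as the only Mock Tet+ array, are not separate checks, and differ only in their errors. Differences between the Mock and RPF1 changes were likewise the same under both. Mock Tet- 1 and Mock Tet+ 2 stood apart from the other 4 arrays in the same way, with scores of 12.9 and 16.3 on the leading component of the deviations from the group means, which held 40.9% of their variance, against scores of -9.19 to -4.88 on the other arrays. EGR1 had a log2 normalized signal of 10.23, 8.94 and 8.64 in Mock Tet-, against 8.64, 10.85 and 9.02 in Mock Tet+. These same 2 arrays were thus the highest for EGR1, 1 in each medium.

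The Mock cells expressed the listed genes of the cell cycle and of mitochondria almost without exception, with keratins, vimentin and neurofilament genes side by side. Of 16578 genes with a probe, 10499 (63.3%) were detected on all 6 Mock arrays by at least 1 probe, 4508 (27.2%) on none and 1571 (9.48%) on some. Every gene with a probe was detected on all 6 arrays among the 35 subunits of respiratory complex I, the 18 ATP synthase subunits, the 79 mitochondrial ribosomal proteins, the 38 genes of S phase and the 33 genes of mitosis. In bulk RNA, fewer cells with a transcript and less of it per cell cannot be told apart.

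Genes of the kidney were detected in part. LHX1, EYA1, WT1, GATA3, CITED1, HOXD11 and EMX2, regulators of the developing kidney, were detected on all 6 arrays, 7 of the 14 kidney lineage genes with a probe. The probes for PAX2, PAX8, SALL1, OSR1 and WNT4 were detected on no Mock array, and SIX2 and RET were detected on 3 each, 1 of Mock Tet- and 2 of Mock Tet+. LHX1 had a log2 signal of 8.07, 7.81 and 8.07 in Mock Tet-, against 8.21, 8.31 and 8.05 in Mock Tet+, and the groups overlapped. Of 14 genes of the mature nephron, PODXL, a podocyte sialomucin that stem cells also carry, was detected on all 6 arrays, while 9 were detected on none, among them AQP2, the water channel of the collecting duct, and SLC12A1, the salt transporter of the loop of Henle. On all 6 arrays, 7 of 14 developmental regulators and 1 of 14 genes of the differentiated organ were thus detected, beside 63.3% of all genes with a probe. These counts alone do not mark the cells as kidney.

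Epithelial keratins and some mesenchymal markers were present together. Of 12 epithelial genes with a probe, 7 were detected on all 6 arrays, 2 on some and 3 on none. Of 18 mesenchymal genes with a probe, 10 were detected on all 6, 1 on some and 7 on none. EPCAM, an epithelial adhesion protein, averaged 6.27 in Mock Tet- and 6.24 in Mock Tet+, and the collagen COL1A1 averaged 8.29 and 8.23. KRT18, a simple-epithelium keratin, had 15.54, 15.52 and 15.54 in Mock Tet-, against 15.44, 15.57 and 15.66 in Mock Tet+, and its partner KRT8 had 13.81, 13.82 and 13.83, against 13.79, 13.69 and 13.77. VIM, the mesenchymal filament vimentin, averaged 15.01 ± 0.03 in Mock Tet- and 14.98 ± 0.08 in Mock Tet+ (SD, n = 3 each). CDH2, N-cadherin, was detected on all 6 arrays, while CDH1, E-cadherin, was detected on 1 Mock Tet- and 2 Mock Tet+ arrays, with values near the detection limit of 6.06 to 6.18. FN1, COL1A2 and PDGFRA were detected on none by their probes.

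Neuronal genes were read as well, a feature for which this line is known. NEFL, the light neurofilament chain, had 10.70, 10.48 and 10.72 in Mock Tet-, against 10.69, 10.87 and 10.29 in Mock Tet+. NEFM, TUBB3, MAP2, GAP43, SYT1, UCHL1 and INSM1 were also detected on all 6 arrays, while 10 of the 19 neuronal and adrenal genes with a probe, including SYP, SNAP25, CHGA and DBH, were detected on none. Of 10 pluripotency genes with a probe, 5 were detected on all 6 arrays, 1 on some and 4 on none. LIN28B, an RNA-binding protein of early embryos, had 12.92, 12.92 and 12.84 in Mock Tet-, against 12.86, 12.83 and 12.98 in Mock Tet+. NANOG averaged 6.53 in Mock Tet- and 6.37 in Mock Tet+.

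Of 46 genes with a probe in the lists for blood, endothelium, liver and muscle, and keratinocytes and carcinoma lines, 23 were detected on no Mock array, 12 on some and 11 on all 6. The T cell gene CD3E, the monocyte gene CD14, HBB (beta globin), the endothelial cadherin CDH5, PECAM1 and the keratinocyte keratin KRT5 were detected on no Mock array. Detected on all 6 were 4 of 13 blood genes, 1 of 10 endothelial, 3 of 13 liver and muscle and 3 of 10 keratinocyte and carcinoma genes. The last include GATA3, counted above as a kidney regulator. PTPRC, the CD45 antigen of blood cells, was detected on all 6 with values of 6.58, 6.44 and 6.26 in Mock Tet-, against 6.73, 6.13 and 6.85 in Mock Tet+, close to the detection limit. The 5 tested blood genes together averaged more, 7.32 in Mock Tet- and 7.28 in Mock Tet+. An undetected probe does not show that a gene is silent: the probes for JUNB and PDIA3, genes that most cells use, were also undetected. Transcripts of mitochondrial DNA were not analysed here.

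**Figure D1:**
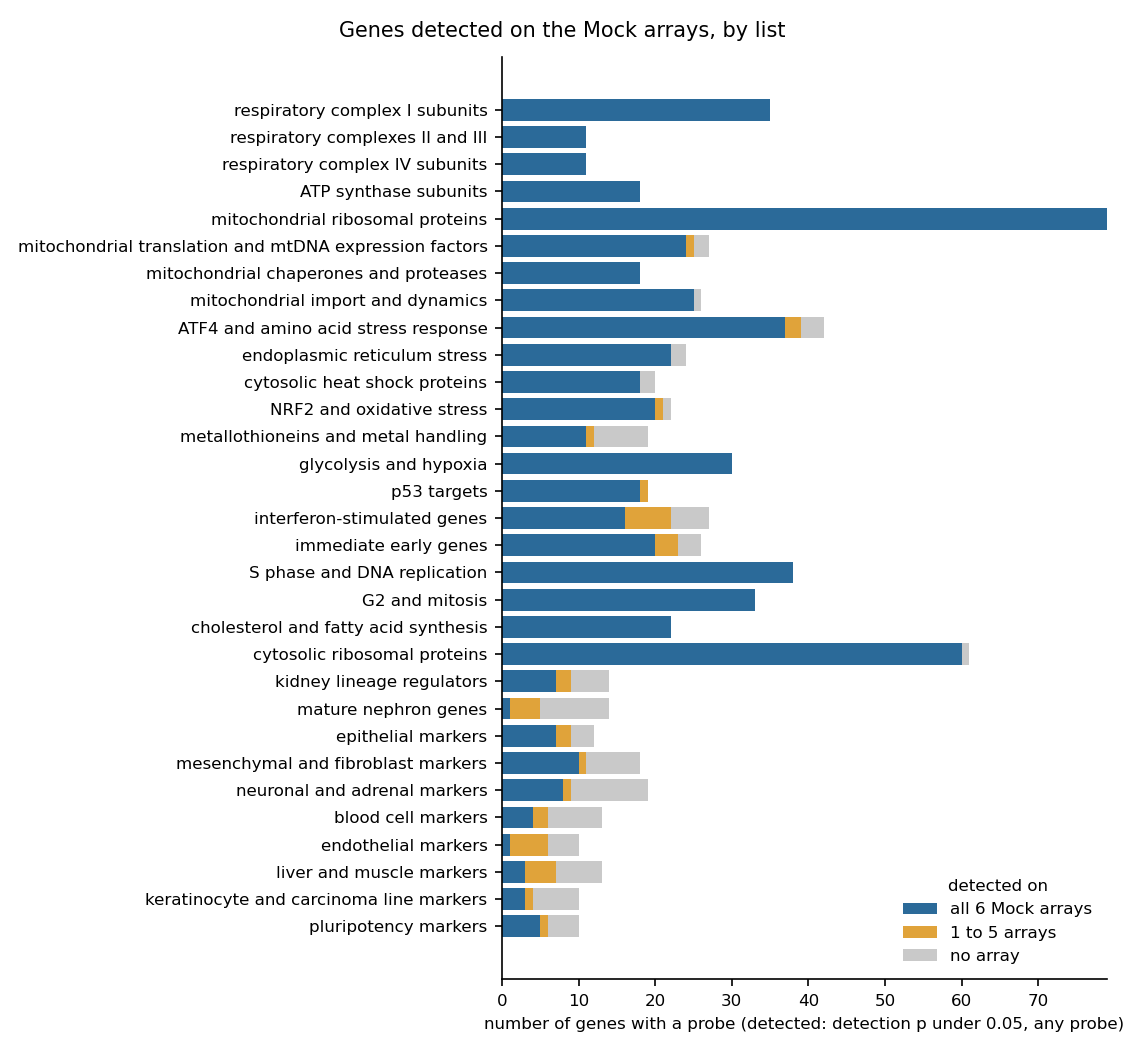
Number of genes with a probe in each list (bars, in genes), split by whether they were detected on all 6 Mock arrays, on 1 to 5 or on no array (detection p under 0.05, any probe). The mitochondrial and growth lists are nearly all detected, while 9 of 14 mature nephron genes are detected on no array.

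No feature passed the test on Tet removal in Mock cells. With limma, 0 of 13228 features passed an adjusted p of 0.05 (0% called), the smallest adjusted p was 0.99987, and 327 features (2.47%) had an unadjusted p under 0.05, 175 higher and 152 lower in Mock Tet-. The largest log2 changes were 0.75 and -0.79, the median absolute change was 0.0618, and 95% of features lay within 0.278 on the log2 scale. No feature reached a log2 change of 1, a 2-fold change. The 3 Mock Tet- values lay all above the 3 Mock Tet+ values in 505 features (3.82%) and all below them in 406 (3.07%).

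The size of change that these arrays would have left unseen differs by feature. The median standard error of the log2 change was 0.120 (quartiles 0.0925 and 0.164). A lone feature at the median error would have needed a log2 change of 0.999, or 1.998-fold, to pass the adjusted threshold. Each feature's own 95% interval lay inside a 2-fold change either way for 13156 features (99.5%) and inside 1.5-fold for 11454 (86.6%). With intervals widened so that they cover all 13228 features together, 5776 (43.7%) stayed inside 2-fold. With chip as a block, 12442 intervals lay inside 2-fold, and on the second chip alone 12504. The limit was tighter for detected genes, with a median error of 0.113 for 11638 features detected on all 6 arrays and 0.158 for the 156 detected on none of them.

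**Figure D2:**
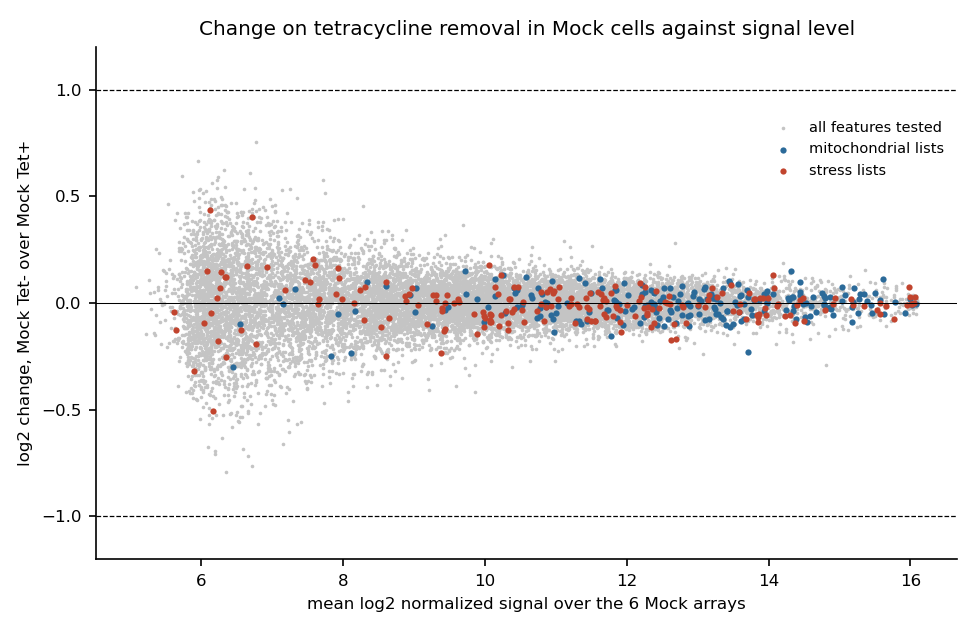
Log2 change, Mock Tet- over Mock Tet+, against the mean log2 normalized signal over the 6 Mock arrays, for all features tested (grey), the mitochondrial lists (blue) and the stress lists (red). Dashed lines mark 2-fold changes. All 13228 features lie between -0.79 and 0.75, and the scatter narrows as the signal rises.

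Taken gene by gene, changes of more than 2-fold lay outside the 95% intervals of every tested gene of the mitochondrial lists. Genes for mitochondrial proteins that are not on these lists were not counted here. Of 263 symbols listed, 225 had a probe and 221 were tested: 0 were called by limma (background 0%) and 0 had an unadjusted p under 0.05, against 2.47% of all features. The 95% intervals of all 221 lay inside a 2-fold change and those of 218 inside 1.5-fold, with the lowest bound at -0.84 and the highest at 0.49. With intervals widened so that they cover all 13228 features together, 171 of the 221 stayed inside 2-fold. The median log2 change of the 221 was -0.00265, beside 0.000367 over all features. Mock Tet- lay wholly above Mock Tet+ in 5 of them (2.26%) and wholly below in 11 (4.98%), beside 3.82% and 3.07% of all features. With chip as a block, and within the second chip, which gave the same changes, 220 of the 221 intervals lay inside 2-fold. Without Mock Tet- 1 and Mock Tet+ 2, 220 of the 221 lay inside 2-fold and 0 genes were called.

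Among the respiratory chain, complex I takes electrons from NADH. Its 35 tested subunits had a mean log2 signal of 12.89, 12.84 and 12.90 in Mock Tet-, against 12.91, 12.92 and 12.91 in Mock Tet+, and 9 of the 35 were above 0. The Mock Tet- means were thus all the lower ones, by a list median of -0.0355 that ranged from -0.0435 to -0.0127 over the other settings. NDUFS1, its largest core subunit, had 9.19, 9.24 and 9.20 in Mock Tet-, against 9.28, 9.44 and 9.24 in Mock Tet+ (log2 change -0.11, 95% interval -0.30 to 0.09). The groups overlapped on 1 array each, and the difference did not pass the test. NDUFA9 had 13.19, 13.10 and 13.15, against 13.08, 13.10 and 13.18, and overlapped. The lowest value of the list was that of NDUFB4, at -0.25 (-0.58 to 0.08), and the highest that of NDUFV2, at 0.10 (-0.06 to 0.26).

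The other complexes gave like values. SDHA, the flavoprotein of complex II that also serves the citric acid cycle, had 13.40, 13.62 and 13.49 in Mock Tet-, against 13.47, 13.31 and 13.44 in Mock Tet+. UQCRH, a hinge protein of complex III, had the lowest value of complexes II and III, with 13.72, 13.41 and 13.65 in Mock Tet-, against 13.86, 14.08 and 13.52 in Mock Tet+. Its log2 change of -0.23 became 0.07 with chip as a block, and neither passed the test. COX4I1, a nuclear subunit of cytochrome c oxidase, whose catalytic core is made in mitochondria, had 15.50, 15.57 and 15.72, against 15.63, 15.59 and 15.73 (-0.05, -0.22 to 0.12). ATP5F1B, the catalytic beta subunit of ATP synthase, had 16.06, 16.08 and 16.08, against 16.05, 16.09 and 16.08 (interval -0.14 to 0.13), a value near the top of the scale, where bright signals can be compressed. The medians of complexes II and III, complex IV and ATP synthase were -0.00847, -0.0188 and -0.00407, with 0 members called.

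No gene of the mitochondrial ribosome, the known target of tetracyclines in human cells, passed the test. Its 79 protein genes had mean log2 signals of 12.38, 12.39 and 12.38 in Mock Tet-, against 12.40, 12.35 and 12.42 in Mock Tet+, with overlapping groups and a median change of -0.00699. MRPL12, a large-subunit protein, had 13.07, 13.13 and 13.17 in Mock Tet-, against 13.07, 12.91 and 13.17 in Mock Tet+. MRPS12, a small-subunit protein of the decoding centre, had 11.34, 11.44 and 11.59, against 11.56, 11.11 and 11.41 (0.10, -0.30 to 0.49), while its 2 other kept probes gave -0.25 and -0.04. The widest-ranging member was MRPL10, at -0.30 (-0.84 to 0.24), whose values of 6.16, 6.15 and 6.61 in Mock Tet-, against 6.25, 6.40 and 7.17 in Mock Tet+, were near the detection limit. Its change was -0.86 with chip as a block.

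Factors that read mitochondrial DNA and help its proteins fold gave intervals of similar width. TFAM, which packages mitochondrial DNA, had 13.31, 13.29 and 13.29 in Mock Tet-, against 13.33, 13.39 and 13.37 in Mock Tet+ (-0.06, -0.27 to 0.15), and the Mock Tet- values were the 3 lower ones. TUFM, the elongation factor that brings tRNA to the mitochondrial ribosome, had 12.70, 12.59 and 12.65, against 12.73, 12.73 and 12.75 (-0.09, -0.24 to 0.06), also without overlap. MTERF3, a mitochondrial transcription factor of the MTERF family, had the lowest value of its list at -0.15 (-0.31 to 0.01). HSPD1, the chaperonin Hsp60 and a standard readout of the mitochondrial unfolded protein response, had 15.11, 15.11 and 14.98, against 14.98, 14.96 and 15.04 (0.07, -0.23 to 0.38). Its 2 other kept probes gave 0.04 and -0.18, so the probes differed in sign.

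The 18 mitochondrial chaperones and proteases had the highest list median among the mitochondrial, stress and growth lists, 0.0380, with 15 of 18 above 0 and 0 called. It was -0.00596 with chip as a block. HTRA2, an intermembrane space protease, had the highest value, with 10.15, 10.26 and 10.21 in Mock Tet-, against 10.11, 10.02 and 10.16 in Mock Tet+ (0.11, -0.05 to 0.27). The protease LONP1 had 12.01, 12.01 and 12.10, against 12.03, 12.05 and 11.92, and CLPP had 11.76, 11.87 and 11.90, against 11.84, 11.81 and 11.86, so both overlapped. Of the import and dynamics genes, VDAC1, the outer membrane channel, had the highest value, with 14.44, 14.44 and 14.30 in Mock Tet- all above 14.23, 14.28 and 14.23 in Mock Tet+ (0.15, -0.02 to 0.31). The fusion proteins MFN2 and OPA1 had changes of -0.05 (-0.29 to 0.20) and -0.06 (-0.29 to 0.18).

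**Figure D3:**
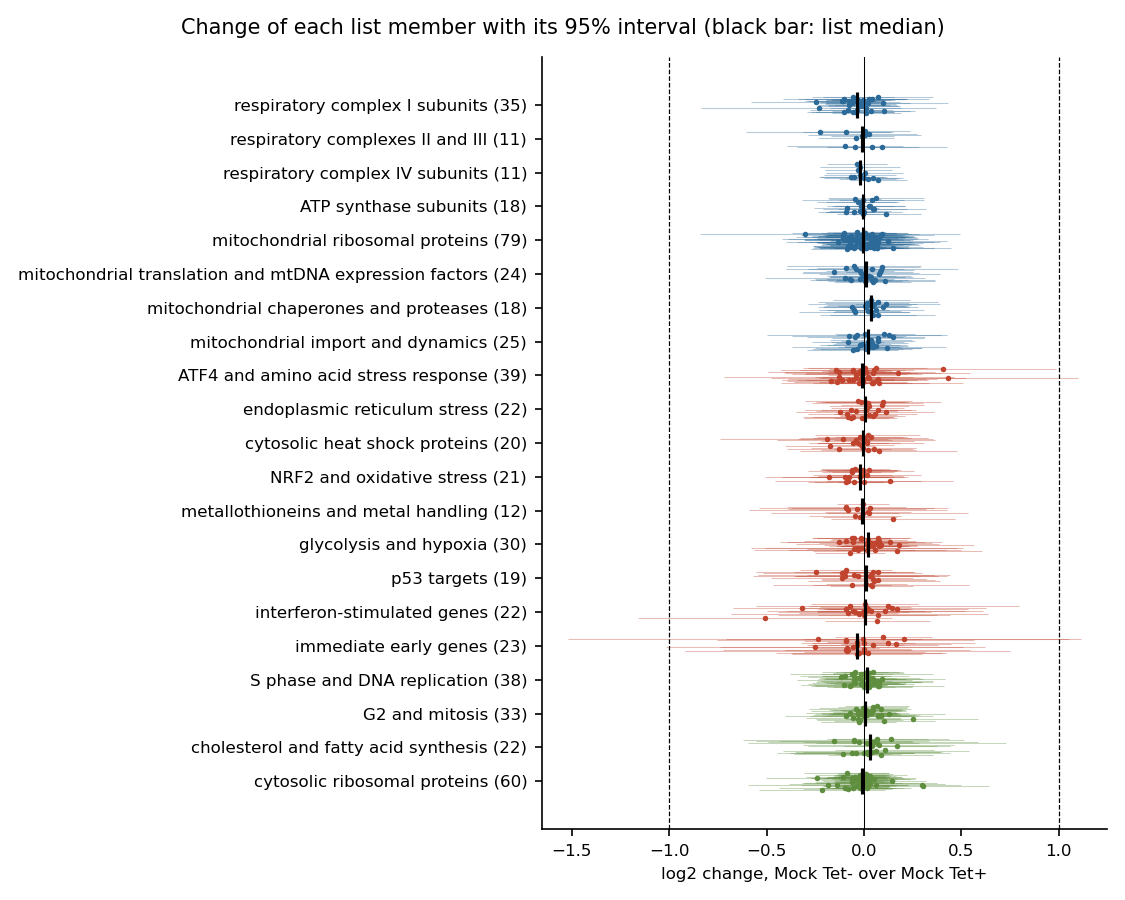
Log2 change, Mock Tet- over Mock Tet+, of each tested member (points) with its 95% interval (thin lines) and the list median (black bars), for mitochondrial (blue), stress (red) and growth (green) lists, with the number of members in brackets. Dashed lines mark 2-fold changes. The intervals of all 221 mitochondrial genes stay inside the dashed lines, and 5 stress genes cross them.

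Stress genes gave 0 calls among 207 tested of 252 listed (background 0%), and 0 had an unadjusted p under 0.05. The intervals of 202 lay inside 2-fold and those of 188 inside 1.5-fold, while with chip as a block 190 lay inside 2-fold, and without Mock Tet- 1 and Mock Tet+ 2, a setting chosen after the data were seen, 199. The exceptions in the main fit were NUPR1, IFI27, FOS, FOSL1 and EGR1. With intervals widened so that they cover all 13228 features together, 102 of the 207 stayed inside 2-fold. Mock Tet- lay wholly above Mock Tet+ in 1 of the 207 (0.483%) and wholly below in 7 (3.38%), beside 3.82% and 3.07% of all features.

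The ATF4 response, which is known to follow mitochondrial translation stress, had a median of -0.0101 over 39 tested genes, with 15 above 0. ATF4 itself, a factor controlled largely at translation, had 15.19, 15.18 and 15.18 in Mock Tet-, against 15.17, 15.18 and 15.23 in Mock Tet+ (-0.01, -0.18 to 0.16), and a dimmer second probe gave 0.28 (SE 0.182). DDIT3, the stress factor CHOP, had 9.83, 10.49 and 10.13, against 10.00, 9.74 and 10.18 (0.18, -0.19 to 0.55). Its spread within each medium was wider than the difference, and the change was -0.03 with chip as a block. TRIB3, a pseudokinase induced by DDIT3, had 10.81, 10.82 and 10.83, against 10.76, 10.87 and 10.68 (0.05, -0.15 to 0.26).

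Of the enzymes that ATF4 controls, ASNS had the lowest value of the list. It had 12.53, 12.67 and 12.63 in Mock Tet-, all below 12.78, 12.81 and 12.76 in Mock Tet+ (-0.17, SE 0.102, 95% interval -0.39 to 0.05, adjusted p = 0.99987 by limma). The direction held on the second chip alone (-0.15) and without the 2 arrays that stood apart (-0.12). MTHFD2, a mitochondrial folate enzyme, was also lower throughout, with 12.33, 12.20 and 12.32, against 12.40, 12.40 and 12.39 (-0.11, -0.30 to 0.08). PSAT1, an enzyme of serine synthesis, had 11.79, 11.74 and 11.88, against 11.68, 11.80 and 11.80, and overlapped. GDF15, a secreted signal of mitochondrial stress, had 6.89, 7.14 and 6.72, against 5.83, 7.05 and 6.66 (0.40, -0.18 to 0.99), and was not detected on Mock Tet+ 1. Its change was 0.06 without that array and 0.69 without Mock Tet- 1 and Mock Tet+ 2. CHAC1, a glutathione-degrading enzyme, was detected on no Mock array.

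**Figure D4:**
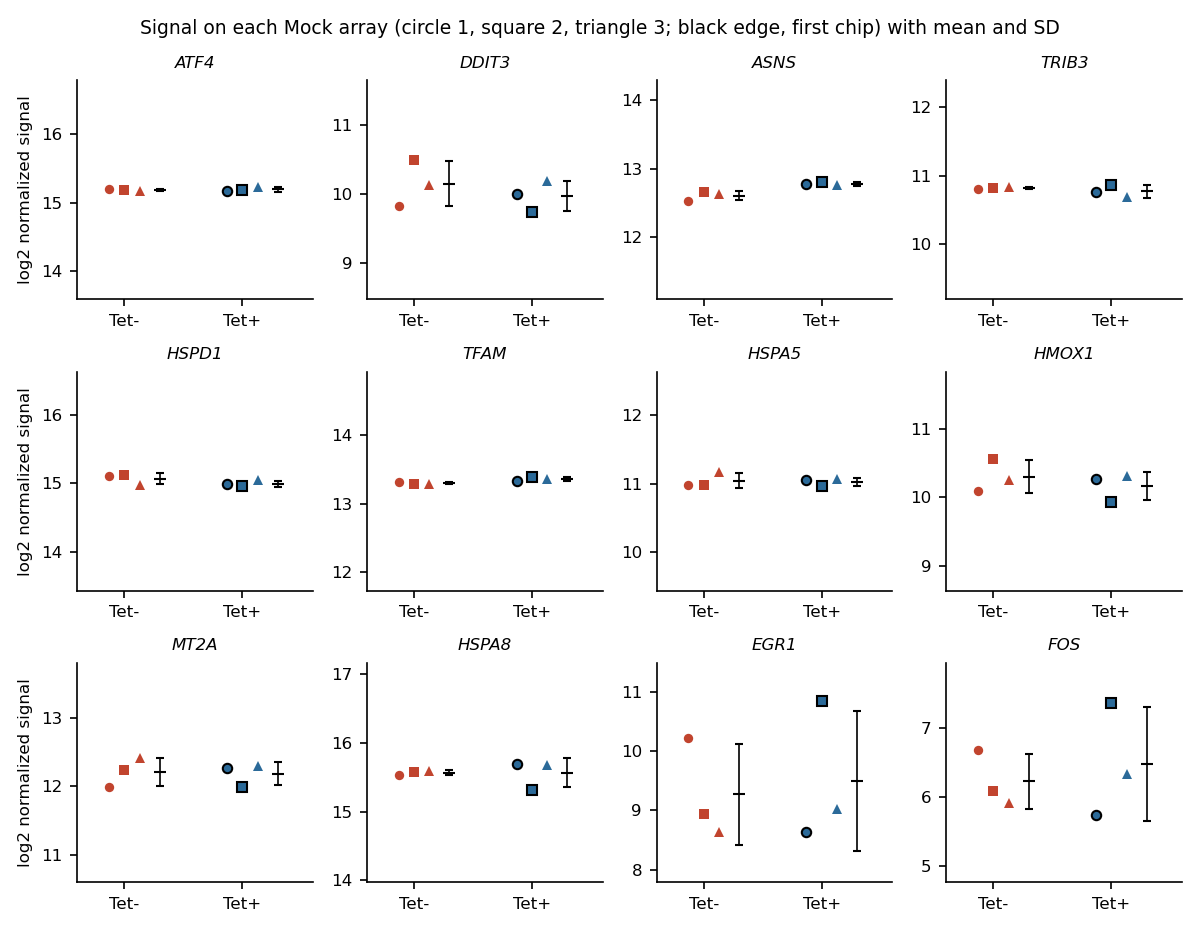
Log2 normalized signal on each Mock array for 12 mitochondrial and stress genes, Mock Tet- (red) left of Mock Tet+ (blue), with the mean and SD of 3 arrays beside the points; black edges mark the first chip. The groups overlap for EGR1 and FOS, which spread most, and ASNS and TFAM are lower on all 3 Mock Tet- arrays.

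The endoplasmic reticulum stress list had a median of 0.00690 over 22 genes, all of whose intervals lay inside 1.5-fold. HSPA5, whose promoter element is printed above, had 10.99, 10.98 and 11.17 in Mock Tet-, against 11.06, 10.96 and 11.07 in Mock Tet+ (0.02, -0.17 to 0.20). XBP1, a factor of this response that acts after splicing of its RNA, had 11.66, 11.31 and 11.57, against 11.63, 11.56 and 11.59, and its probe does not tell the spliced form apart. The chaperone HYOU1 and the oxidoreductase ERO1B had the list's lowest and highest values, -0.12 and 0.12.

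Cytosolic heat shock genes had a median of -0.00665 over 20 genes. HSPA8 had 15.53, 15.58 and 15.59 in Mock Tet-, against 15.70, 15.32 and 15.68 in Mock Tet+, with equal means of 15.57 and an interval of -0.33 to 0.33. HSPA1A, the inducible Hsp70, had 8.42, 7.96 and 8.68, against 8.42, 8.43 and 7.98 (0.08, -0.33 to 0.48). HSPA1B is nearly identical to it, and whether the probe reads both was not tested. DNAJB1, the Hsp40 induced with it, had 11.77, 11.88 and 11.89, against 12.04, 11.74 and 11.83. The groups overlapped for these 3 chaperones.

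Antioxidant genes of NRF2 had a median of -0.0195, with 3 of 21 above 0, and -0.0703 with chip as a block; 0 were called under either. HMOX1, heme oxygenase, had the highest value of the list, with 10.09, 10.56 and 10.25 in Mock Tet-, against 10.27, 9.93 and 10.30 in Mock Tet+ (0.13, -0.19 to 0.46). NQO1, a quinone reductase, had 11.47, 11.48 and 11.44, against 11.36, 11.62 and 11.65 (-0.08, -0.46 to 0.29). GCLM, of glutathione synthesis, and SOD2, the superoxide dismutase of mitochondria, had changes of 0.02 and -0.02.

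Metal-handling genes were set beside them because tetracyclines bind metals. MT2A had 11.99, 12.24 and 12.40 in Mock Tet-, against 12.26, 11.99 and 12.29 in Mock Tet+ (0.03, -0.37 to 0.43). MT1X, a related metallothionein, had 12.80, 13.46 and 13.61, against 13.49, 12.85 and 13.45 (0.03, -0.48 to 0.53). Both were lowest on Mock Tet- 1 and Mock Tet+ 2, the arrays on which EGR1 was highest. SLC30A1, a zinc exporter under the same metal sensor, had 10.28 on all 3 Mock Tet- arrays, against 10.36, 10.24 and 10.51 in Mock Tet+, and TFRC, the transferrin receptor of iron uptake, had a change of 0.02 (-0.20 to 0.24).

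Glycolysis and hypoxia genes, to which cells with weak respiration are known to turn, had a median of 0.0226 over 30 genes. LDHA, lactate dehydrogenase, averaged 16.01 ± 0.03 in Mock Tet- and 15.94 ± 0.07 in Mock Tet+ (SD, n = 3 each; change 0.07, -0.10 to 0.24). The 3 Mock Tet- values were the higher ones, by a margin smaller than the interval. HK2, a hexokinase, had 10.20, 10.27 and 10.38, against 10.49, 9.94 and 10.53, and SLC2A1, the glucose transporter GLUT1, had 9.62, 9.71 and 9.59, against 9.61, 9.62 and 9.64. ANKRD37, a hypoxia target, had the highest value at 0.18 (-0.21 to 0.57), and -0.06 with chip as a block.

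Among p53 targets, CDKN1A, the cell cycle inhibitor p21, had 12.67, 12.49 and 12.66 in Mock Tet-, against 12.49, 12.89 and 12.34 in Mock Tet+. MDM2, which degrades p53, had 9.24, 8.83 and 8.62, against 8.85, 9.17 and 8.56, and POLH, a translesion polymerase, had the lowest value, with 8.55, 8.45 and 8.47 all below 8.67, 8.93 and 8.61 (-0.25, -0.56 to 0.06). Interferon-stimulated genes were partly detected. ISG15, a ubiquitin-like protein, had 9.45, 9.82 and 9.64, against 9.68, 9.59 and 9.62, and IFIT1, a sensor of foreign RNA, had 9.56, 9.34 and 9.27, against 9.22, 9.84 and 9.18. IFI27 was detected on 0 Mock Tet- and 2 Mock Tet+ arrays, at 5.85, 5.81 and 6.09, against 6.18, 6.37 and 6.71 (-0.51, -1.16 to 0.14), so a change beyond 2-fold lay within its interval.

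Immediate early genes, which answer serum and handling within minutes, set the loosest limits. The interval of EGR1 ran from -1.52 to 1.05 around a change of -0.23, which became 0.25 with chip as a block and -0.04 without Mock Tet- 1 and Mock Tet+ 2. It was -0.67 without Mock Tet+ 1 alone and 0.44 without Mock Tet+ 2 alone. FOS had 6.69, 6.08 and 5.92 in Mock Tet-, against 5.73, 7.37 and 6.34 in Mock Tet+ (-0.25, -1.01 to 0.51). Its change was -0.11 with chip as a block and -0.04 without Mock Tet- 1 and Mock Tet+ 2. It was -0.62 without Mock Tet+ 1 alone and 0.19 without Mock Tet+ 2 alone. FOS and EGR1 were thus highest on the same array of each medium. JUN and MYC had intervals of -0.31 to 0.31 and -0.31 to 0.30. The list median was -0.0331, and -0.147 with chip as a block.

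Growth genes were tested as a readout of proliferation and lipid synthesis. Of 153 tested, 0 were called, 1 had an unadjusted p under 0.05, and all 153 intervals lay inside 2-fold. PCNA, the replication clamp, had 14.65, 14.56 and 14.53 in Mock Tet-, against 14.60, 14.72 and 14.70 in Mock Tet+ (-0.10, -0.33 to 0.14). CCNB1, the mitotic cyclin B1, had 12.82, 12.89 and 12.76, against 12.78, 12.82 and 12.89, and FASN, fatty acid synthase, had 14.62, 14.73 and 14.83, against 14.76, 14.46 and 14.69. Each overlapped between the media.

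Of the 68 tested members of the cell type lists, 0 were called and 2 had an unadjusted p under 0.05. Endothelial markers had mean log2 signals over 5 tested genes of 6.68, 6.65 and 6.62 in Mock Tet-, against 6.40, 6.54 and 6.44 in Mock Tet+, and all 5 were above 0 with a median of 0.190, while the defining genes CDH5 and PECAM1 were undetected on all 6 arrays. MYOD1, the muscle regulator, had 5.89, 5.95 and 5.63, against 6.29, 6.05 and 6.38 (-0.42; unadjusted p = 0.0126, adjusted p = 0.99987 by limma), and was detected on 0 Mock Tet- and 2 Mock Tet+ arrays. The MYOD1 values lie at the detection limit, and the endothelial and nephron means lie close above it.

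The features with a gene symbol that had the smallest p-values were dim. The 6 on the positive side were ZNF169, HTR4, ERBB2, PKNOX2, OMD and SPOCK1, with log2 changes of 0.44 to 0.54, and the 6 on the negative side were MYRF, NPC1L1, ZNF417, SLC6A6, KRTDAP and SORCS1, with -0.76 to -0.43; each had an adjusted p of 0.99987 by limma. ZNF169, a zinc finger protein, had 7.02, 7.01 and 7.12 in Mock Tet-, against 6.65, 6.54 and 6.63 in Mock Tet+. ERBB2, the receptor HER2, had 7.28, 7.62 and 7.31, against 7.06, 6.79 and 6.77 (0.53, 0.25 to 0.80), while its second probe gave 0.15 (SE 0.165). The change of ERBB2 was 0.26 in the deposited processed values, where the background is not subtracted. ZNF417, another zinc finger protein, averaged 6.34 ± 0.12 in Mock Tet- and 7.10 ± 0.38 in Mock Tet+ (SD, n = 3 each; change -0.76, -1.15 to -0.37), and -0.39 on the second chip alone.

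Genes that hold the stress elements in their promoters also gave 0 calls. RefSeq windows of 300 bases, 250 before and 50 after the start, were available for 9747 tested genes and numbered 35116 in all, and 596 windows held more than 1 kind of element, which overlapped in 25. The amino acid response element was in 1.77% of windows and 149 tested genes, of which 0 were called and 4 (2.68%) had an unadjusted p under 0.05, beside 2.47% of all features. The endoplasmic reticulum stress element was in 0.0769% of windows and 15 tested genes, with 0 called and 0 at an unadjusted p under 0.05. The heat shock element was in 0.49% of windows and 50 tested genes, with a median change of -0.0120. Of these 50, 2 (4%) had an unadjusted p under 0.05. The antioxidant element (TGAC and GCA with 3 bases between them) was in 3.18% of windows and 403 tested genes. Of these 403, 12 (2.98%) had an unadjusted p under 0.05. The metal response element is short and was in 29.6% of windows, and the CArG box in 1.29%; of 4436 and 161 tested genes with them, 88 (1.98%) and 2 (1.24%) had an unadjusted p under 0.05, and 0 were called. A match is a run of letters in the window, not a site shown to be used.

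The same removal of Tet from RPF1 cells, on other arrays, gave 1776 called features (13.4%), 885 higher and 891 lower. In Mock cells these features had medians of -0.00350 and 0.00521, against RPF1 medians of 0.574 and -0.514, and 850 of the 1776 had the same sign in both lines. For 252 called features with a log2 change of at least 1 in RPF1 cells, the Mock interval stopped short of the RPF1 change in all 252 and short of 0.5 times that change in 230. The 252 were picked by this same RPF1 change, and its own error was left out. Counts among the 252, also those of the interaction test below, which contains that change, are therefore a description and not a separate test. The change itself differed between the lines, by the interaction test of limma, for 679 features (5.13%), among them 211 of the 252. A block for chip left 98 such features, and the second chip by itself gave 75; 2 of the 3 RPF1 Tet- arrays lay on the third chip.

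The 5 features that rose most in RPF1 cells were HES5, NPPB, CITED1, H2AC18 and VGF. HES5, a repressor downstream of Notch, had a Mock change of 0.08 (95% interval -0.76 to 0.93), against 4.22 in RPF1 cells (interaction adjusted p = 0.00125 by limma, and 0.0847 with chip as a block). CITED1, a transcriptional co-regulator of kidney progenitors, had 8.64, 8.66 and 8.63 in Mock Tet-, against 8.61, 8.71 and 8.64 in Mock Tet+, a change of -0.01 (-0.25 to 0.23) beside 3.64 in RPF1 cells (interaction adjusted p = 6.26e-07 by limma). NPPB, the precursor of a natriuretic peptide, had 0.18 (-0.62 to 0.98) beside 4.19, and its Mock change was -0.15 with chip as a block.

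CPA4, BMP5, ANXA1, TFPI and NDUFV3 fell most in RPF1 cells. ANXA1, annexin A1, had 14.66, 14.38 and 14.60 in Mock Tet-, against 14.56, 14.57 and 14.48 in Mock Tet+, a change of 0.01 (-0.38 to 0.40) beside -3.29 in RPF1 cells. NDUFV3 is a complex I subunit and so belongs to the mitochondrial genes: it had 9.13, 8.96 and 9.12 in Mock Tet-, against 8.98, 8.95 and 9.06 in Mock Tet+ (0.07, -0.21 to 0.36), beside a change of -2.74 in RPF1 cells (interaction adjusted p = 8.02e-06 by limma). BMP5, a secreted ligand, and TFPI, an inhibitor of coagulation, had Mock changes of 0.13 and 0.16, with intervals that ended at 0.40 and 0.39.

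Some stress genes were called in RPF1 cells, where 13.4% of all features were. Those given here are examples and not a count of the 207 tested. POLH rose by 0.74 in RPF1 cells beside -0.25 in Mock cells, and the difference passed (interaction adjusted p = 0.0158 by limma). For MDM2, ISG15 and JUN, among others called in RPF1 cells, the difference did not pass (interaction adjusted p = 0.0613, 0.0773 and 0.0732 by limma). ASNS fell by 0.73 on the log2 scale in RPF1 cells (adjusted p = 0.000728 by limma), beside -0.17 in Mock cells, and the difference passed the test narrowly (adjusted p = 0.0472 by limma). That call was lost with chip as a block (adjusted p = 0.47 by limma) and without any 1 of the 6 Mock arrays (adjusted p = 0.0638 to 0.111 by limma). GDF15 rose by 1.34 in RPF1 cells (adjusted p = 0.00699 by limma), beside 0.40 in Mock cells, and here the difference did not pass (adjusted p = 0.204 by limma), although it did without Mock Tet+ 1 (adjusted p = 0.0305 by limma). FOS rose by 2.62 in RPF1 cells beside -0.25 in Mock cells (interaction adjusted p = 0.00673 by limma, and 0.154 with chip as a block). For HMOX1 and HSPA1A, with 0.60 and 0.82 in RPF1 cells beside 0.13 and 0.08 in Mock cells, the differences did not pass (adjusted p = 0.25 and 0.137 by limma). With array weights that of HSPA1A did (adjusted p = 0.0459 by limma).

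**Figure D5:**
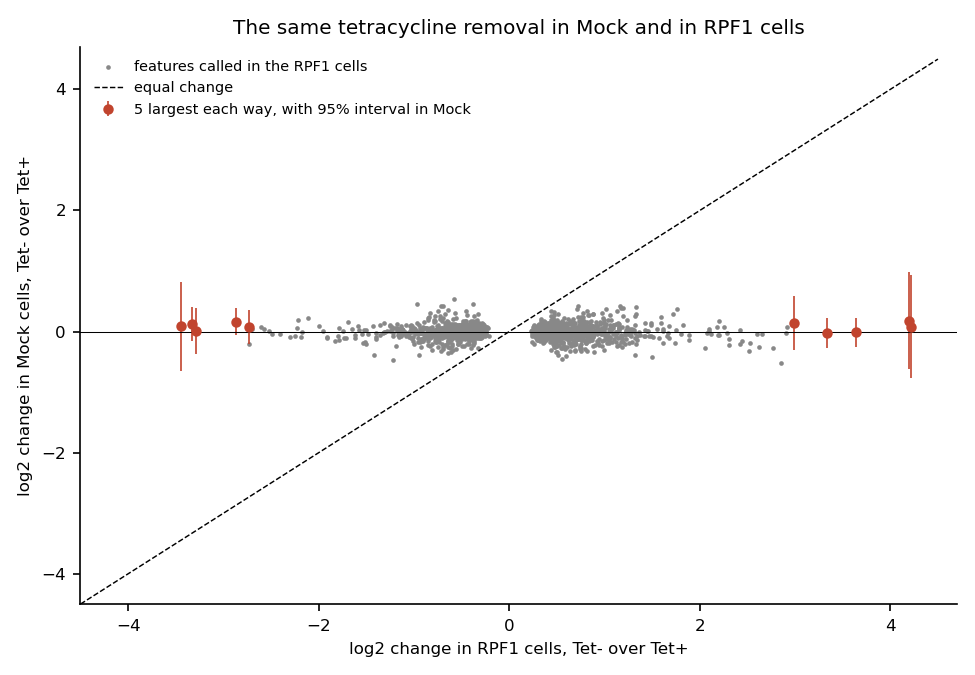
Log2 change on Tet removal in Mock cells (vertical) against that in RPF1 cells (horizontal) for the 1776 features called in RPF1 cells (grey), with the 5 largest changes each way in red and their 95% intervals in Mock cells. The dashed line marks equal changes. The Mock values stay near 0 across the whole range of RPF1 changes.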

How the data were processed

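RNA of 12 HEK293 arrays, 3 in each of 4 groups, was labelled and read on Illumina bead arrays with BeadStudio (version not given in the sources), as the submitters' processing notes record. The deposited signals are intensity values without normalization, with a detection p-value for each probe and array, per the file headers. The deposited processed table holds intensity values that match a quantile normalization of the raw signals (median difference 0.00626%, largest 2.07%).

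Here signals were background corrected with limma 3.58.1 in R 4.3.3 (normexp, background taken from the detection p-values, whose steps match 708 negative controls, offset 16), quantile normalized and set on the log2 scale. Of 22184 probes, 19715 had 1 symbol in the platform annotation and 2469 had none. Probes detected (p under 0.05) on 3 or more of 12 arrays were kept (14752), and of several probes of a gene the one with the highest mean was used. All 4 groups were fitted together with lmFit and eBayes (8 residual and 3.29 prior degrees of freedom), with Benjamini-Hochberg adjustment over 13228 features. The 95% intervals are those of single features. Promoter sequences are from RefSeq (GRCh38.p14).

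Members and gene lists were chosen with earlier results of these data known. Named genes were preset anchors of each list, the highest and lowest member of each mitochondrial or stress list, the 6 smallest p-values each way among features with a symbol and the 5 largest RPF1 changes each way; the variable genes of the closing section were chosen after their values were seen. Replicate numbers did not pair the arrays: deviations of same-numbered Mock arrays correlated at -0.233, -0.246 and 0.0108. The level of the transfected factor is not reported here.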

Additional observations from a re-analysis of the deposited data

Results flagged for a closer look

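The change on Tet removal differed between Mock and RPF1 cells, by the interaction test of limma, for 679 features. Differences are given as Mock change minus RPF1 change, on the log2 scale, for the features that rose or fell most in RPF1 cells. They were 3.53 for CPA4, 3.46 for BMP5, 3.30 for ANXA1, 3.03 for TFPI and 2.81 for NDUFV3, which fell in RPF1 cells. They were -4.14 for HES5, -4.01 for NPPB, -3.65 for CITED1, -3.36 for H2AC18 and -2.84 for VGF, which rose there. The genes were named for their RPF1 changes, so the sizes of these differences are a description and not a ranking of all differences. With chip as a block the call was lost for HES5 (adjusted p = 0.0847 by limma) and CPA4 (adjusted p = 0.0881 by limma), and within the second chip for HES5, CPA4 and NPPB (adjusted p = 0.156, 0.139 and 0.0703 by limma).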

How the results depend on the processing

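With limma, 0 features were called between Mock Tet- and Mock Tet+ in all 24 alternatives run, with 136 to 645 features at an unadjusted p under 0.05 (1.33% to 4.62%). Intervals inside 2-fold numbered 12987 to 13060 with 1 Mock array left out. Of 2859 values of 126 named genes under these settings, 0 were called and 188 had the other sign. Of these values, 106 moved by more than the SD between replicates. Of 391 medians of the 17 mitochondrial and stress lists with a tested gene, 31 did. Medians of the growth and cell type lists were not read under these settings. Features detected on all 6 arrays numbered 11638, and 10495 at a detection p under 0.01. The features whose Tet effects differed between Mock and RPF1 numbered 1493 with array weights, 98 with chip as a fixed block, 75 on the second chip alone, 232 at a minimum log2 difference of 1, 423 to 488 with 1 Mock array left out and 313 without Mock Tet- 1 and Mock Tet+ 2, the last chosen after seeing the data; the cause of these shifts was not tested beyond the fewer arrays or the added term. With the replicate number as a block, 427 differed and 0 were called in Mock cells, with 305 at an unadjusted p under 0.05 and 13135 intervals inside 2-fold; the numbers share no stated batch. Background-subtracted changes of dim probes were larger than in the deposited processed values, and signals near the detection limit give the widest intervals.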

Other observations

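Of the features detected on all 6 Mock arrays, 7 had an SD of at least 0.5 over the arrays, beside a median SD of 0.113: EGR1, BCHE, TMT1A, ZNF467, WDR72, SULF1 and AIMP1. Mock Tet+ 2 was the highest array for 7 of 7 and Mock Tet- 1 the second highest for 6 of 7, so the spread of these genes ran across the media. BCHE, butyrylcholinesterase, had a log2 signal of 7.73, 7.10 and 6.69 in Mock Tet-, against 6.33, 7.96 and 7.36 in Mock Tet+. SULF1, an extracellular sulfatase, had 7.35, 6.39 and 6.59, against 7.20, 7.69 and 6.58. F12, coagulation factor XII, had 10.30, 9.49 and 9.19, against 10.00, 10.34 and 9.90, also with these 2 arrays highest.

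Detection alone separated the media for 15 of the 16578 genes with a probe, beside 1571 genes detected on some but not all Mock arrays. How many genes would separate in this way by chance was not tested. ABCC9, ATF7IP, C10orf55, DCX, FOXP3, GHRH, OMD, SNX32 and USH1G were detected on 3 Mock Tet- and 0 Mock Tet+ arrays, and C4BPB, EVC, FBXW8, MRC2, PPM1J and ZNF566 on 0 Mock Tet- and 3 Mock Tet+ arrays. The highest log2 signal among them on any 1 Mock array was 6.92 and the largest absolute log2 change 0.591. None of them passed the test.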
